A study of Mus musculus with 6 samples.

Results

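The syndecans and glypicans are the cell-surface heparan sulfate proteoglycans, and 8 of their genes were followed here, Sdc1, Sdc2, Sdc3, Sdc4, Gpc1, Gpc3, Gpc4 and Gpc6. They were chosen by name, as the rows of the deposited count tables whose Ensembl gene carries one of these symbols, and all 8 were found among 41388 genes. Of these, 7 passed the filter on low counts and were tested together with 12192 genes in all, and the 7 were above that filter in all 6 samples. RNA-seq had been performed on tumor-initiating cells (TICs), sorted as CD24+CD90+CD45- cells, and on non-CD24+CD90+ tumor cells, with 3 samples per group. Both populations came from primary mammary tumors of FVB/N-TgN(MMTVPyVT)634Mul/J mice aged 12 weeks. In this strain the viral MMTV promoter, active mainly in mammary epithelium, drives the polyoma middle T oncogene, and all samples of both groups share the transgene. Neither group was treated. Cells of 4 sorts were pooled for every sample, and libraries were made from 120 ng of RNA. The comparison group comprises whatever CD45- cells fell outside the double-positive gate, single-positive cells included, whereas the series description calls it CD24-CD90-. Replicate numbers follow the order of the samples, and the labels do not say whether samples of the groups share mice. The study's legend on RNA quality gives a total of 12 mice, so the groups may share them. That legend does not match samples of the groups to each other.

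Heparan sulfate proteoglycans are core proteins that carry long sulfated sugar chains. The chains bind growth factors, chemokines and matrix proteins and present them to their receptors. Syndecans span the membrane and signal through short cytoplasmic tails, whereas glypicans are held in the outer leaflet by a glycosylphosphatidylinositol anchor. In mammary tissue, syndecan-1 is known as the main syndecan of the epithelium.

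The total count ranged from 6781239 to 8450038 in non-CD24+CD90+ samples and from 8114933 to 9100552 in TIC samples. CPM is the read count of a gene scaled to a common library size, here normalized by the trimmed mean of M values (TMM). By total count alone, without TMM, 3 counts correspond to 0.330 to 0.442 CPM. TIC replicate 3 stood apart on the first principal component of all tested genes, with a score of 165 against -56.9 to -5.51 for the other samples, and TIC replicate 2 on the second component, with -136 against -8.66 to 66.4. Each member was also fitted with each sample left out. Mitochondrial genes took 1.93% to 2.91% of the counts in non-CD24+CD90+ samples and 3.21% to 5.01% in TICs. Genes for which the other samples of a group predicted 20 to 60 counts were at 0 in 19.7% to 25.1% of cases in non-CD24+CD90+ samples and in 27.5% to 37.7% in TICs. Both measures were higher in every TIC sample, and their part in the results below was not tested. In bulk samples, fewer cells of a type and less RNA per cell cannot be told apart.

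The members lie on 7 chromosomes of the GRCm38 build. Among the syndecans, Sdc1 (ENSMUSG00000020592) is at chr12:8771323-8793715 on the plus strand and Sdc2 (ENSMUSG00000022261) at chr15:32920723-33034935 on the plus strand. Sdc3 (ENSMUSG00000025743) is at chr4:130792537-130826319 on the plus strand and Sdc4 (ENSMUSG00000017009) at chr2:164424247-164443887 on the minus strand. Among the glypicans, Gpc1 (ENSMUSG00000034220) is at chr1:92831645-92860779 on the plus strand and Gpc6 (ENSMUSG00000058571) at chr14:116925315-117976544 on the plus strand. Gpc4 (ENSMUSG00000031119, chrX:52053021-52165252) and Gpc3 (ENSMUSG00000055653, chrX:52272426-52613950) are neighbours on the minus strand, 107 kb apart with 0 protein-coding genes between them. Gpc5 and Gpc6 form a second such pair on the plus strand of chromosome 14, with a gap of 400 kb and 0 coding genes between them. Exons of Gpc1 overlap those of Ankmy1 on the other strand and exons of Sdc3 overlap antisense genes, and all of these overlapping genes were at 0 counts in all 6 samples. How reads in such overlaps were assigned is not given in the sources used here.

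RefSeq promoter sequences of GRCm38.p6 were matched for 5 of 8 members, Sdc1, Sdc3, Sdc4, Gpc3 and Gpc4, and not for Sdc2, Gpc1 or Gpc6. The 250 bases upstream of the RefSeq start are shown for Gpc3, which was counted in every sample, and for Sdc3 and Gpc5, members of the same families with few or no counts. Sdc3 is read from chr4:130792287-130792536 on the plus strand, Gpc3 from chrX:52613975-52614224 on the minus strand and Gpc5 from chr14:115091965-115092214 on the plus strand. The bases downstream of the RefSeq start were found in a transcript for Sdc3 and Gpc5 but not for Gpc3, so the start of Gpc3 was not checked in this way. Sequences run 5′ to 3′ on the strand of the gene, and capitals mark the GC box, GGGCGG on either strand, the motif bound by Sp1-type factors.
Sdc3: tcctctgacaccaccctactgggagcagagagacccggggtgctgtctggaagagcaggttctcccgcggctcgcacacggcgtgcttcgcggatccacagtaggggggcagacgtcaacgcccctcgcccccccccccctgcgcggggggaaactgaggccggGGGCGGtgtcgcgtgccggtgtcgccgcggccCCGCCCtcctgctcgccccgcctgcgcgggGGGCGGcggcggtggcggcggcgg
Gpc3: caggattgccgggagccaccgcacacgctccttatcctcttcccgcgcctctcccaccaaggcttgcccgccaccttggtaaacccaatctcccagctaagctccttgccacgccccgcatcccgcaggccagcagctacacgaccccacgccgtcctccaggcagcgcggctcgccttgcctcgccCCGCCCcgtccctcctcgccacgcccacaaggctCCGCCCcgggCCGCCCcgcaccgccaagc
Gpc5: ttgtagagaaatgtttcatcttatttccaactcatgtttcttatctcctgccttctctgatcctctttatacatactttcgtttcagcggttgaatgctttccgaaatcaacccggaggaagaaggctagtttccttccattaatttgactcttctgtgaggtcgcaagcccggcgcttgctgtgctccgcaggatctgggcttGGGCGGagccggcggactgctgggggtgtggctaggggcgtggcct

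The printed windows hold 3 GC boxes for Sdc3, 3 for Gpc3 and 1 for Gpc5. Windows of the same length held at least 1 GC box in 32.7% of 32851 RefSeq promoters. CpG dinucleotides numbered 32 upstream of Sdc3, 25 upstream of Gpc3 and 12 upstream of Gpc5, against a median of 6 over all promoters. Upstream of Sdc1, Sdc4 and Gpc4 there were 10, 19 and 18 CpGs and 3, 4 and 1 GC boxes. The motif TATAAA, searched on both strands, was found in the Gpc5 window and in none of the 5 member windows, against 12.4% of all promoters. The AP-1 motif TGANTCA was found in none of the 5 member windows, against 6.75% of all promoters.

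The comparison of TICs with non-CD24+CD90+ tumor cells asks which cell-surface heparan sulfate proteoglycans differ in RNA level between them. None of the 7 tested members passed the threshold, an adjusted p below 0.1 by edgeR's exactTest with Benjamini-Hochberg adjustment over all 12192 genes. Gpc1 came nearest, with a 1.89-fold higher level in TICs. By the same test 1.55% of all genes were called, 1.36% as higher and 0.189% as lower in TICs. The count of 0 members called was also 0 by the quasi-likelihood test of edgeR, which called 0.41% of genes, and 1 by DESeq2, which called 2.58% of genes. At an unadjusted p below 0.05 exactTest gave 1 member, Gpc1, where 7.85% of all genes fell under that value. In 3 of 7 members, Sdc2, Gpc1 and Gpc3, every TIC sample was above every non-CD24+CD90+ sample, which held for 7.69% of all genes tested. In 0 members was every TIC sample below every other sample, which held for 7.55% of all genes. The median log2 fold change of the 7 members was 0.24, against -0.0061 for all genes tested. The plot of CPM by sample shows the individual values.

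**Figure D1:**
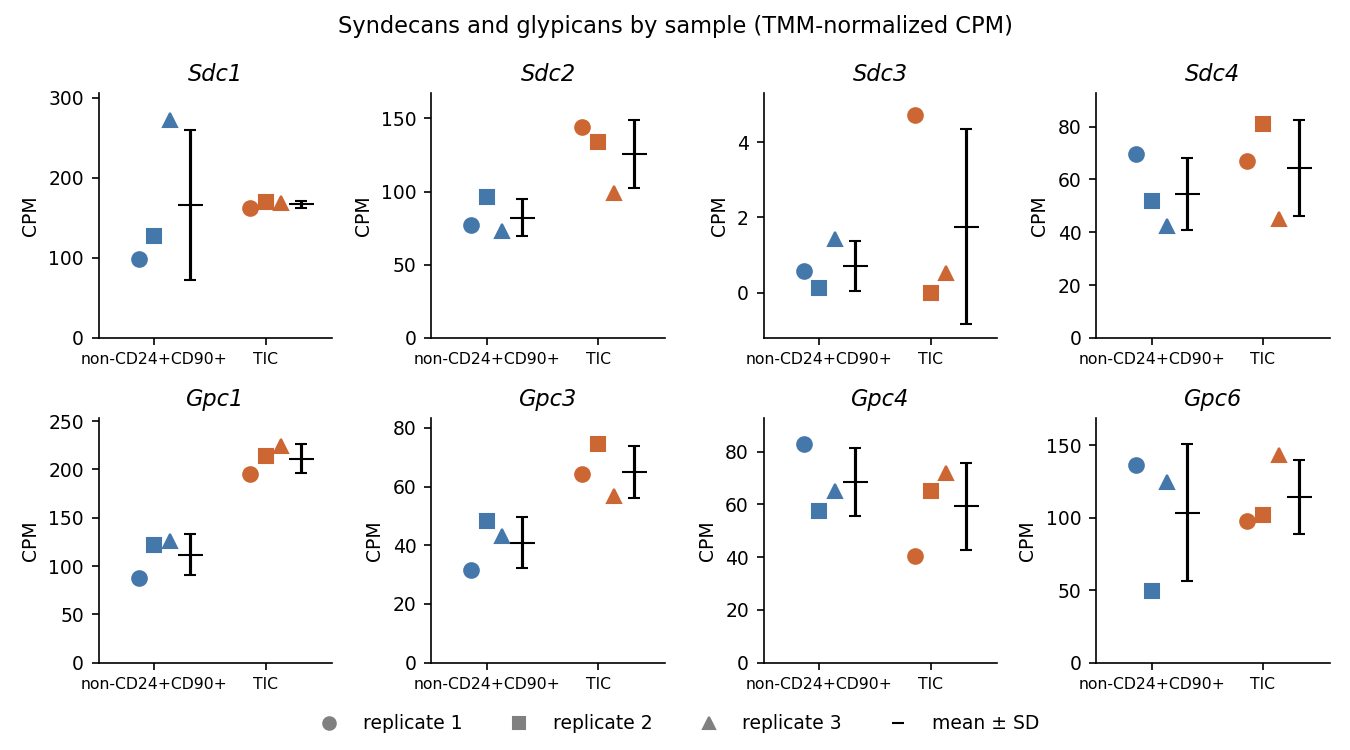
TMM-normalized CPM (linear y axis, a separate scale per gene) of the 8 members in 3 non-CD24+CD90+ (blue) and 3 TIC samples (orange), with the symbol giving the replicate and the black bar the mean ± SD of a group. The groups are apart for Sdc2, Gpc1 and Gpc3 and overlap for the other members, and Sdc3 stays below 5 CPM.

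Gpc1, glypican-1, is a coreceptor for fibroblast growth factors and is known to be expressed in tumor cells and stroma. Its level was 87.6, 122 and 126 CPM in non-CD24+CD90+ replicates 1 to 3 and 195, 214 and 224 CPM in TIC replicates 1 to 3. All 3 TIC samples were above all 3 others, with a clear gap between the groups. TICs averaged 211 ± 14.8 CPM and the other tumor cells 112 ± 21.1 CPM (SD, n = 3 each). The log2 fold change was 0.92 ± 0.30 (SE), with a 95% interval of the fold from 1.25 to 2.85. The p-value of exactTest was 0.00285 before and 0.145 after Benjamini-Hochberg adjustment. The call depended on the procedure, with an adjusted p of 0.0519 by DESeq2, 0.0543 by exactTest on genes with at least 10 counts in every sample, and 0.248 by the quasi-likelihood test. Leaving out 1 sample at a time in exactTest gave log2 fold changes from 0.78 to 1.01 and adjusted p-values from 0.112 to 0.665. The exact permutation test of log2 CPM gave a two-sided p of 0.1, which is the smallest p that 3 samples against 3 allow.

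Gpc3, glypican-3, binds Wnt and Hedgehog ligands and is known as a growth regulator. It was at 31.5, 48.2 and 43.1 CPM in non-CD24+CD90+ samples and at 64.3, 74.4 and 56.7 CPM in TICs. The groups did not overlap, but the lowest TIC sample and the highest other sample were close. Its log2 fold change was 0.67 ± 0.43 (SE) and the adjusted p of exactTest was 0.875, with a 95% interval of the fold from 0.887 to 2.85. Its X-linked neighbour Gpc4, glypican-4, a regulator of Wnt and bone morphogenetic protein signals, was at 82.7, 57.5 and 64.9 CPM in non-CD24+CD90+ samples and at 40.4, 65.2 and 72.0 CPM in TICs. These values overlapped, with the lowest in TIC replicate 1. The log2 fold change of Gpc4 was -0.21 ± 0.41 (SE) with an adjusted p of 1 by exactTest and a 95% interval of the fold from 0.494 to 1.52. Without TIC replicate 1 it was 0.020, so its direction rested on that sample.

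Gpc6, glypican-6, a further Wnt-binding glypican, was at 136, 49.7 and 125 CPM in non-CD24+CD90+ samples and at 97.5, 102 and 143 CPM in TICs. The spread within the non-CD24+CD90+ group, set by its replicate 2, covered most of the range. Its log2 fold change was 0.14 ± 0.40 (SE) with an adjusted p of 1 by exactTest and a 95% interval of the fold from 0.644 to 1.89. Its direction turned to -0.19 without non-CD24+CD90+ replicate 2 and to -0.034 without TIC replicate 3.

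Among the syndecans, Sdc2, syndecan-2, which is known from mesenchymal cells and acts in matrix assembly, was at 77.1, 96.4 and 72.9 CPM in non-CD24+CD90+ samples and at 144, 134 and 99.4 CPM in TICs. TIC replicate 3 was only just above non-CD24+CD90+ replicate 2, and with scaling by library size alone the groups overlapped. For Sdc2 the log2 fold change was 0.61 ± 0.33 (SE), the adjusted p of exactTest was 0.708, and the 95% interval of the fold ran from 0.974 to 2.4. Without TIC replicate 3 the log2 fold change was 0.78 with an adjusted p of 0.482 by exactTest.

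Sdc1, syndecan-1, was at 98.4, 127 and 273 CPM in non-CD24+CD90+ samples and at 162, 170 and 168 CPM in TICs. The SD of the TIC samples was 4.12 CPM, while that of the non-CD24+CD90+ samples was 93.4 CPM, with replicate 3 far above the others. Between the groups the log2 fold change was 0.0061 ± 0.38 (SE), with an adjusted p of 1 by exactTest and a 95% interval of the fold from 0.603 to 1.67. Non-CD24+CD90+ replicate 3 also had the highest summed level of 5 basal and myoepithelial markers (keratins 5, 14 and 17, Trp63 and Oxtr), 1001 CPM against 450 and 539 CPM in the other samples of its group. Its part in the spread of Sdc1 was not tested. Without that sample the log2 fold change of Sdc1 was 0.57 with an adjusted p of 1 by exactTest.

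Sdc4, syndecan-4, a focal adhesion component, was at 69.5, 51.7 and 42.3 CPM in non-CD24+CD90+ samples and at 67.0, 81.1 and 44.9 CPM in TICs. The groups overlapped and replicate 3 was the lowest in each. For Sdc4 the log2 fold change was 0.24 ± 0.43 (SE) with an adjusted p of 1 by exactTest and a 95% interval of the fold from 0.658 to 2.12. Sdc3, syndecan-3, known mainly from neural tissue, had 4, 1 and 10 counts in non-CD24+CD90+ samples and 43, 0 and 4 counts in TICs. It passed the filter in too few samples and was not tested, and 43 of its 62 counts came from TIC replicate 1. The glypicans outside the list were also low, with Gpc2 at 12 counts in non-CD24+CD90+ replicate 2, 3 counts in TIC replicate 2 and 0 elsewhere, and Gpc5 at 0 in all 6 samples. A count of 0 allows up to 0.330 to 0.442 CPM, by total count without TMM, for counting error alone.

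The intervals of the uncalled members bound what these samples can show. For Sdc1, Sdc2, Sdc4, Gpc3, Gpc4 and Gpc6 they include equal levels, and for Sdc2, Sdc4 and Gpc3 they also include a level more than 2 times higher in TICs. For Gpc4 the interval reaches down to 0.494 times the level of the other cells. A p that misses the threshold does not show that a level is equal. The plot of fold changes sets the members beside the called genes of the heparan sulfate pathway.

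**Figure D2:**
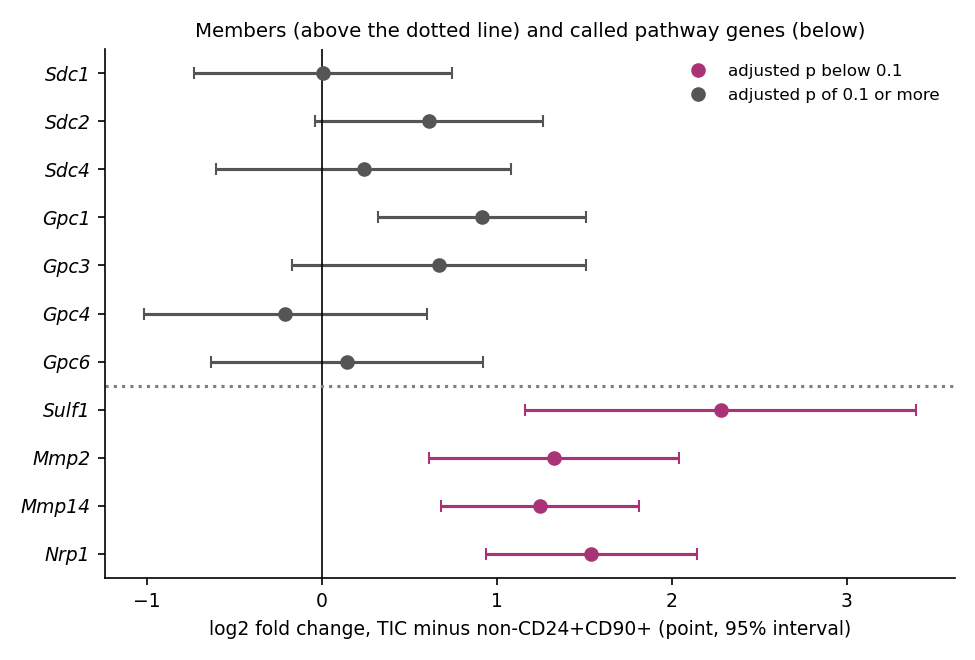
Log2 fold change of TICs over non-CD24+CD90+ tumor cells (x axis, point with its 95% interval) for the 7 tested members, above the dotted line, and for the 4 called genes of the pathway lists, below it. The interval of Gpc1, alone among the members, lies above 0, and no member has an adjusted p below 0.1.

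Levels of different genes were compared as CPM per kb of merged exon length. Averaged over all 6 samples, Sdc1 was the highest member at 43.7 CPM per kb, above 90.2% of tested genes, followed by Gpc1 at 31.3, Sdc2 at 29.5, Gpc4 at 24.1, Sdc4 at 23.3, Gpc3 at 19.7 and Gpc6 at 16.9, the last above 76.2% of tested genes. In TICs the order was Sdc1, Gpc1, Sdc2, Sdc4, Gpc3, Gpc4, Gpc6 and Sdc3. In non-CD24+CD90+ tumor cells it was Sdc1, Gpc4, Sdc2, Gpc1, Sdc4, Gpc6, Gpc3 and Sdc3. Each member overlapped its next neighbour in these orders in the range of its 3 samples, except for the step down to Sdc3, which was at 0.292 CPM per kb in TICs and 0.118 in the other cells. Of 28 pairs of members, 19 did not overlap in TICs and 13 did not overlap in the other cells. Both counts include every pair with Sdc3, which lay below all other members in both groups. In TICs, all Sdc1 samples were above all samples of Sdc2, and all Gpc1 samples above those of Sdc4, Gpc3, Gpc4 and Gpc6. Gpc1 stood at rank 2 in TICs and at rank 4 in the other cells.

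The make-up of each family, as the share of its members in the summed level per kb, does not depend on the scaling between samples and was described with no test. Within the 4 glypicans, Gpc1 held 20.9%, 33.3% and 28.9% in non-CD24+CD90+ samples and 41.0%, 37.9% and 38.1% in TICs. Gpc4 held 38.5%, 30.6% and 29.1% in non-CD24+CD90+ samples and 16.6%, 22.4% and 23.8% in TICs. For both genes the groups did not overlap, Gpc1 having the larger share in every TIC sample and Gpc4 in every other sample. With 3 samples against 3, such a separation can reach no two-sided permutation p below 0.1, and the shares of 8 members were looked at. Shares within a family are not independent, because a larger share of a member lowers those of the others. The CPM of Gpc4 itself overlapped between the groups, with a log2 fold change of -0.21. The mean share of Gpc1 was 39.0 ± 1.75% in TICs and 27.7 ± 6.27% in the comparison group (SD, n = 3 each), and that of Gpc4 20.9 ± 3.86% and 32.7 ± 5.07%. Gpc3 held 23.2 ± 4.10% and 19.6 ± 5.42%, and Gpc6 16.8 ± 2.57% and 20.02 ± 8.05%, with overlapping groups.

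**Figure D3:**
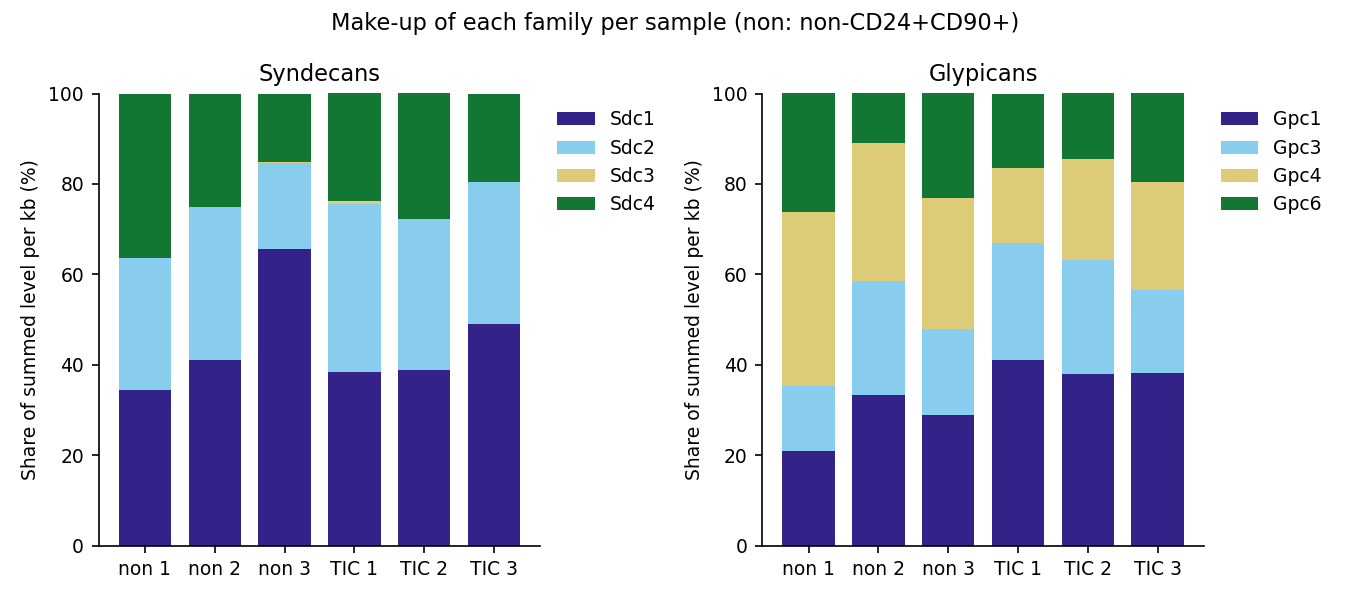
Share of each member in the summed CPM per kb of its family (y axis, percent) in each of the 6 samples (non: non-CD24+CD90+). In the glypicans the Gpc1 segment is larger in all 3 TIC samples, 37.9% to 41.0%, than in the other samples, 20.9% to 33.3%, while in the syndecans the groups overlap for each member.

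Within the 4 syndecans the shares overlapped between the groups for every member. Sdc1 held 42.2 ± 5.99% in TICs and 47.1 ± 16.4% in non-CD24+CD90+ tumor cells, Sdc2 33.8 ± 2.90% and 27.3 ± 7.56%, and Sdc4 23.7 ± 4.16% and 25.5 ± 10.6% (SD, n = 3 each). Sdc3 stayed under 1% of the syndecan level in each sample. The summed level of the glypicans was 105 ± 11.6 CPM per kb in TICs and 78.8 ± 6.94 in non-CD24+CD90+ tumor cells, with every TIC sample above every other sample, and that of the syndecans 105 ± 13.0 and 88.4 ± 18.2 with overlap. These sums were not tested either, and the same limit of 3 samples against 3 holds for them.

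Heparan sulfate is built, edited and released by a set of enzymes. Of 127 genes in 9 lists of this pathway and its partners, 99 were tested and 13 were at 0 in all samples. Of these, 4 genes were called by exactTest, all higher in TICs, Sulf1, Mmp2, Mmp14 and Nrp1, and 0 were called lower, where 1.36% of all genes were called higher. The quasi-likelihood test called 2 of these lists' genes and DESeq2 called 6, where they called 0.41% and 2.58% of all genes. All 4 are also on the gene list that the study derived from these samples, so they are no independent evidence. For Mmp14 the study also measured the protein by flow cytometry and reported more of it on the surface of TICs. A stricter moderation of the gene-wise dispersions, with which the analysis began, left 0 of the 4 called, with an adjusted p of 0.548 for Sulf1 and 1 for the others by exactTest.

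Sulf1 removes 6-O-sulfate groups from heparan sulfate at the cell surface. It was at 13.4, 6.58 and 19.3 CPM in non-CD24+CD90+ samples and at 45.4, 52.0 and 93.3 CPM in TICs. The groups were apart and the log2 fold change was 2.28 ± 0.57 (SE) with an adjusted p of 0.0225 by exactTest and 0.169 by the quasi-likelihood test. With 1 sample left out at a time it passed in 3 of 6 fits, and it lost its call without non-CD24+CD90+ replicate 1 or 2 or TIC replicate 3 (adjusted p of exactTest 0.139, 0.232 and 0.221). It was the called gene among 10 tested of the heparan sulfate editing and breakdown list.

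Mmp14, a membrane-bound metalloproteinase known to cleave syndecan-1, was at 1113, 1069 and 1114 CPM in non-CD24+CD90+ samples and at 1811, 2875 and 3133 CPM in TICs. For Mmp14 the log2 fold change was 1.25 ± 0.29 (SE) with an adjusted p of 0.00642 by exactTest and 0.0729 by the quasi-likelihood test. It lost its call by exactTest without non-CD24+CD90+ replicate 2 (adjusted p 0.135). Mmp2, a secreted gelatinase that Mmp14 activates, was at 34.3, 66.4 and 58.1 CPM in non-CD24+CD90+ samples and at 130, 148 and 120 CPM in TICs. Its log2 fold change was 1.33 ± 0.36 (SE) with an adjusted p of 0.0407 by exactTest and 0.171 by the quasi-likelihood test, and it passed in 3 of 6 fits with 1 sample left out. It lost its call without non-CD24+CD90+ replicate 1 or 3 or TIC replicate 2, with adjusted p-values of exactTest of 0.317, 0.157 and 0.229. In both genes every TIC sample was above every other sample.

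Nrp1, neuropilin-1, binds semaphorins and heparan sulfate-binding vascular endothelial growth factor. It was at 147, 130 and 131 CPM in non-CD24+CD90+ samples and at 278, 401 and 509 CPM in TICs. The groups were apart, and the log2 fold change was 1.54 ± 0.31 (SE) with an adjusted p of 0.000662 by exactTest and 0.0537 by the quasi-likelihood test. It was called in 6 of 6 fits with 1 sample left out and was the called gene among 21 tested ligands and receptors.

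In the other 6 lists no gene was called by exactTest. The genes with the smallest p in each were Col18a1, the collagen XVIII proteoglycan, with a log2 fold change of 1.14 ± 0.39 (SE, adjusted p 0.178 by exactTest), and B3gat3, which completes the linker to the core protein, with -1.18 ± 0.38 (adjusted p 0.139). Chst14, a dermatan sulfate sulfotransferase, had 2.01 ± 0.74 (adjusted p 0.312 by exactTest), and Tiam1, a Rac activator that binds syndecan-1, had -0.74 ± 0.33 (adjusted p 0.473). Extl1, a chain-elongating enzyme, had -1.15 ± 0.53 (adjusted p 0.525 by exactTest), and Ndst1, which starts the sulfation of the chain, had -0.72 ± 0.65 (adjusted p 0.996). None of these values passed the threshold. In the 6 lists the unadjusted p was below 0.05 for 4 of 7 tested other proteoglycans, 1 of 12 linker and sulfate donor genes, 2 of 5 polymerases, 0 of 8 epimerase and sulfotransferase genes, 2 of 13 chondroitin and dermatan sulfate enzymes and 2 of 13 syndecan tail partners, against 7.85% of all genes. The quasi-likelihood test and DESeq2 each called 0 genes of these lists. The median log2 fold change of the lists ranged from -0.59 for the 5 polymerases to 0.81 for the ligands and receptors, as the plot of the lists shows.

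**Figure D4:**
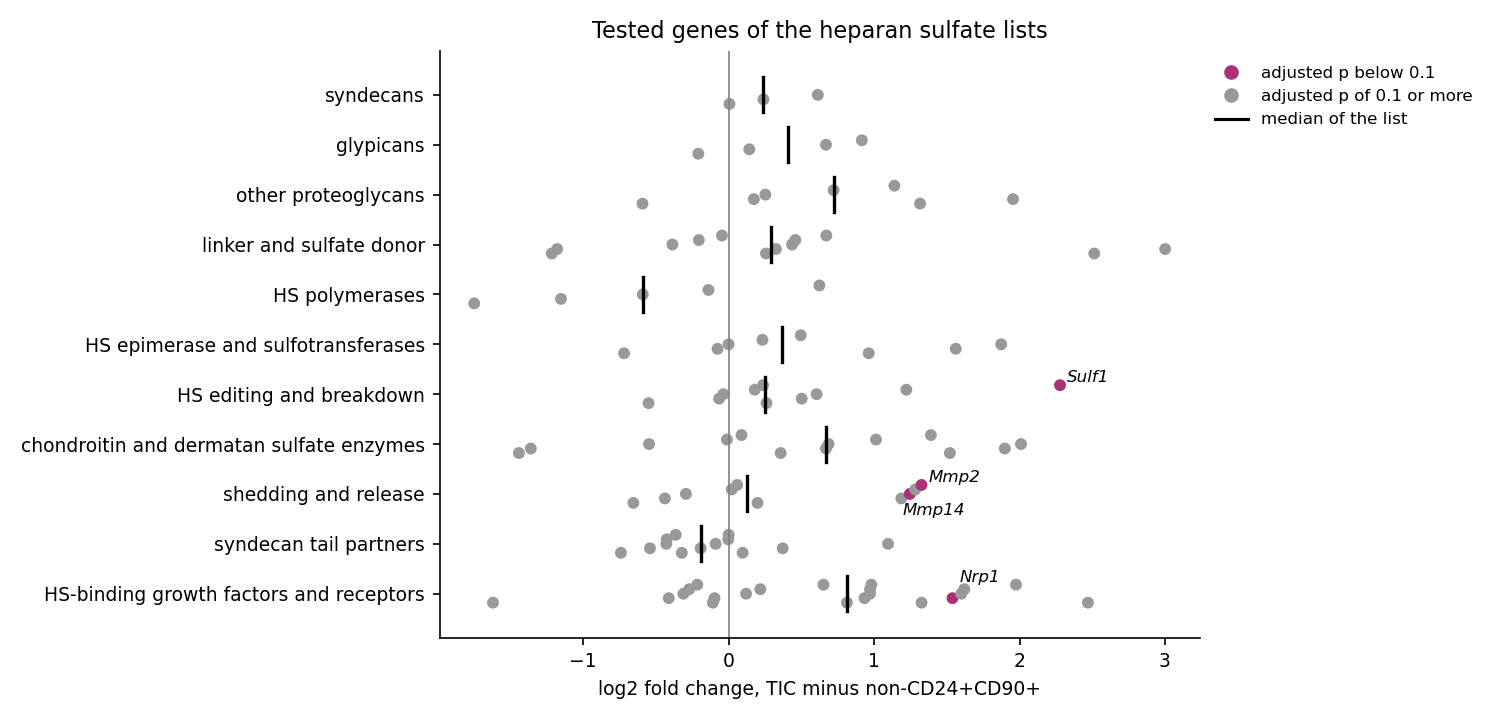
Log2 fold change of TICs over non-CD24+CD90+ tumor cells (x axis) for each tested gene of the member families and the 9 pathway lists (rows, HS: heparan sulfate), with the list median as a black bar. Genes with an adjusted p below 0.1 are coloured and named, and they lie between 1.25 and 2.28, while no syndecan or glypican is coloured.

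The sorted populations were checked against cell type markers. The sums of the luminal epithelial, fibroblast, pericyte and smooth muscle, and endothelial lists did not overlap between the groups. Those of the other lists overlapped. Luminal epithelial markers, 8 genes including Epcam, Krt8 and Krt18, summed to 5838 to 6163 CPM in non-CD24+CD90+ samples and to 3858 to 4455 CPM in TICs. RNA of these markers was thus present in both groups. None of the 8 was called by exactTest or the quasi-likelihood test, while DESeq2 called Krt18 (adjusted p 0.00181) and Cdh1 (adjusted p 0.0257) as lower in TICs. Fibroblast markers summed to 809 to 895 CPM in non-CD24+CD90+ samples and to 1424 to 2694 CPM in TICs, and 3 of 6 tested were called, Dpt, Pi16 and Dcn, while Tcf21 was at 0 in all samples. Pericyte and smooth muscle markers summed to 424 to 585 CPM and 739 to 1134 CPM, with Rgs5 called among 8. Rgs5 alone was at 243 CPM in every non-CD24+CD90+ sample and at 528, 667 and 800 CPM in TICs. Acta2, Cnn1 and Myh11 had log2 fold changes of -0.011, -0.049 and 0.071, and Notch3, Des, Kcnj8 and Abcc9 of 0.81, 0.96, 1.68 and 2.05, all uncalled. Endothelial markers summed to 115 to 141 CPM and 169 to 577 CPM, with Robo4 called among 8. By exactTest 1.36% of all genes were called higher. These higher sums stood beside the higher levels of Gpc1, Gpc3 and Sdc2 and of the 4 called pathway genes, and their part in those results was not tested.

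**Figure D5:**
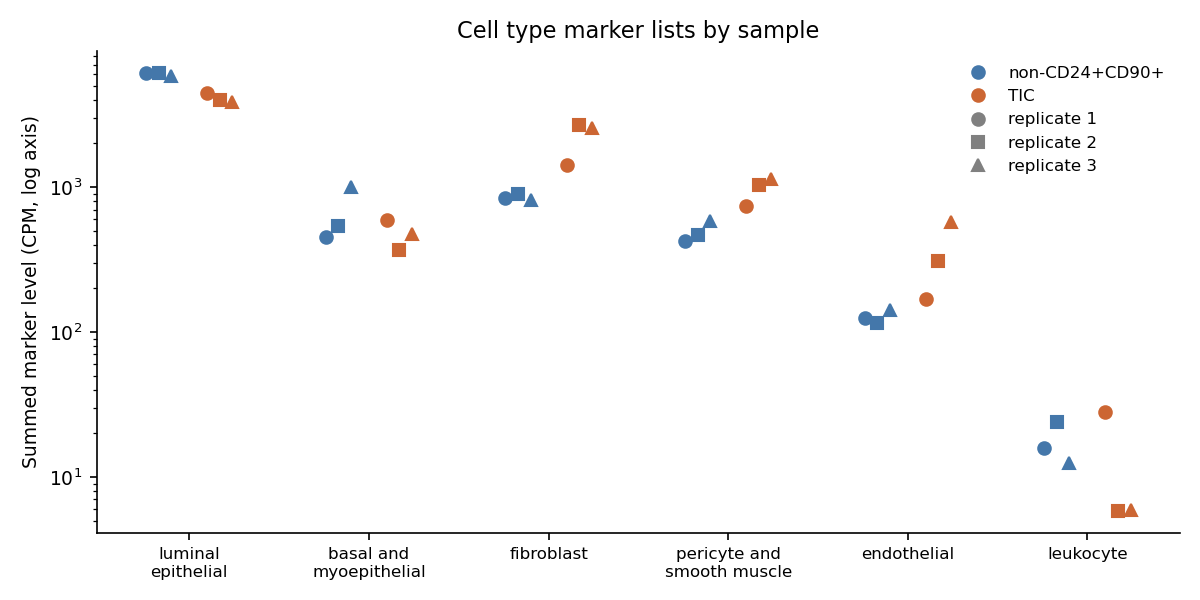
Summed CPM of 6 marker lists (log y axis) in each sample, with colour for the group and symbol for the replicate. Fibroblast, pericyte and endothelial sums are higher in all 3 TIC samples than in the other 3, and the luminal sum is lower in all 3. Rgs5 makes up most of the pericyte and smooth muscle sum in TICs.

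Leukocyte markers summed to 12.4 to 23.8 CPM in non-CD24+CD90+ samples and to 5.83 to 28.1 CPM in TICs, with Adgre1 and Cd3e among those at 0 in all samples. Adipocyte markers summed to 0 and to 0 to 3.30 CPM, with Adipoq, Plin1 and Lep at 0. Erythroid markers summed to 26.7 to 100.2 CPM and 15.4 to 166 CPM, with Hba-a2 at 0. Basal and myoepithelial markers summed to 450 to 1001 CPM and 365 to 593 CPM, and genes of the dissociation response to 3568 to 5634 CPM and 3133 to 4292 CPM. These 5 sums overlapped between the groups, and none of their genes was called by exactTest or the quasi-likelihood test, while DESeq2 called the dissociation gene Ier2 as lower in TICs (adjusted p 0.00492).

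The genes whose pattern over the 6 samples was most like that of a member were taken as the 2 with the highest Pearson r of log2 CPM among 6773 genes with a mean of at least 20 CPM. For Gpc1 these were Itgbl1 (r = 0.996) and Cd34 (r = 0.992). For Sdc2 they were S100a6 (r = 0.988) and Efemp1 (r = 0.978), for Gpc3 Nedd4 and B4galt4 (r = 0.987 for each) and for Sdc1 Myh11 (r = 0.981) and Dsp (r = 0.978). For Sdc4 they were Anxa3 (r = 0.988) and Ube2n (r = 0.960), for Gpc4 Atp9a (r = 0.994) and Denr (r = 0.991) and for Gpc6 G6pdx (r = 0.981) and Pdrg1 (r = 0.978). Among the members, the closest pair was Gpc1 and Gpc3 (r = 0.926), followed by Sdc2 and Gpc3 (r = 0.878), and the chromosome X neighbours Gpc3 and Gpc4 had r = -0.552. These values describe 6 samples in 2 groups that share their libraries, and the best among so many genes is high by selection.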

How the data were processed

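RNA-seq was analysed from 3 TIC and 3 non-CD24+CD90+ samples, grouped by the sample labels. The authors trimmed the reads with Trimmomatic (version 0.32), aligned them to GRCm38 with STAR (version 2.4.0), used SAMtools (version 1.1) and counted uniquely mapped reads with HTSeq. The deposited values are raw counts per Ensembl gene. Removal of reads that map more than once can lower genes with close paralogs. The annotation release and the strand setting are not given in the sources used here. GENCODE release M21 gave names, coordinates and merged exon lengths, and 40254 of 41388 genes had a symbol.

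The filter kept genes above 1 CPM in 3 or more samples, a value the study does not state. TMM factors, common and tagwise dispersions and exactTest followed the study's methods in edgeR (version 4.0.16, R version 4.3.3), with Benjamini-Hochberg adjustment and 0.1 as the threshold. The dispersion common to all genes was 0.678. A first fit moderated the tagwise dispersions towards the common value (120 genes called, 0 members). After its calls were seen, it was replaced by the default moderation of edgeR (189 genes called, 0 members), the setting of an earlier processing of these counts outside the study, whose methods name no moderation, and the first fit is kept as an alternative. Standard errors came from the negative binomial fit with tagwise dispersions, and 95% intervals are 1.96 standard errors wide on each side. The scripts were tested on simulated counts with 200 genes changed. Fold changes were recovered under both moderations. Few of the changed genes were called under the first one. The requirement on the share called was at first not met and was then placed on abundant genes under the default moderation only, and exactTest called more false genes there than its nominal share.

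Alternatives were the quasi-likelihood test, DESeq2 (version 1.42.0), other scalings, filters and dispersions, a threshold of 0.05 and each sample left out. Intervals and floors cover counting error or the spread between these samples only, and the pools may hide the spread between mice. The members, gene lists and tests were chosen with earlier results of these data known. Genes named are the members, Gpc2 and Gpc5, called pathway genes or, where a list had none, its gene with the smallest p, the 2 most similar genes per member, and markers that were called or at 0, of which some are not reported here.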

Additional observations from a re-analysis of the deposited data

How the results depend on the processing

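The number of called genes, 189, was 50 with the quasi-likelihood test, 306 with DESeq2, 112 with no filter on low counts, 116 at an adjusted p below 0.05 and 120 with tagwise dispersions moderated around the common dispersion, the first fit made. With 1 sample left out it ranged from 72 (without non-CD24+CD90+ replicate 3) to 323 (without TIC replicate 1). It was 87 and 90 without non-CD24+CD90+ replicates 1 and 2, and 102 without TIC replicate 2. The number of called members, 0, became 1 (Gpc1) with DESeq2 and with at least 10 counts in every sample, and stayed at 0 in the other 13 settings, each left-out sample included. The called pathway genes, 4, were 2 with the quasi-likelihood test and 0 with the dispersions around the common value. The log2 fold change of Sdc1, 0.0061, was -0.063 with library size only and ranged from -0.25 to 0.57 with 1 sample left out. That of Gpc4 ranged from -0.35 to 0.020 (without TIC replicate 1) and that of Gpc6 from -0.19 to 0.40 in those fits. Sdc2, Sdc4, Gpc1 and Gpc3 kept their direction in all 14 alternatives. The differences in family shares moved by less than the larger of the SDs of the groups in all alternatives, although those of Sdc1, Sdc3 and Sdc4 changed sign with 1 sample left out. The 3 members with every TIC sample above numbered 2 with library size only and 3 or 4 with 1 sample left out. These settings were added after the data were seen. Groups that are already apart stay apart when a sample is removed, so leaving out samples is no check of this number. The cause of these changes was not tested. No paired analysis was possible because the replicate numbers are only the order of the samples. Sdc3, Gpc2 and Gpc5 were too low to test at this depth.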
